A study of Mus musculus with 24 samples.

Results

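The genes of glycolysis and of the cellular response to low oxygen were followed through 8 groups of mouse small-intestinal organoids in which the Mediator kinases CDK8 and CDK19 were deleted or inhibited. They are 36 genes of the 54146 in the count tables, chosen by name for their function, with earlier results of these data known. They comprise 3 transporters of glucose or lactate, 15 glycolytic enzymes, 3 regulators of glycolytic flux and 2 HIF hydroxylases. The rest are 3 mitochondrial proteins, 2 secreted factors and 8 other known targets of the hypoxia-inducible factors. In the first experiment, organoids from Cdk8 lox/lox mice without Cre (WT) were compared with organoids that carried Villin-CreERT2, a tamoxifen-activated recombinase driven by an epithelial promoter (Cdk8-/-), with organoids in which Cdk19 was disrupted by CRISPR-Cas9 (Cdk19-/-) and with organoids carrying both changes (double knockout). According to the protocols all 4 genotypes received 600 nM 4-hydroxytamoxifen for 7 days, and the Cdk19-targeted lines were expanded from picked single organoids, so that each such line is clonal. In the second experiment, wild-type organoids were exposed to the CDK8/19 kinase inhibitor Senexin B, at 10 µM, or to its solvent DMSO for 16 h or 24 h. Each of the 8 groups held 3 biological replicates, which gave 24 RNA-seq libraries.

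Glycolysis breaks glucose down to pyruvate and, when lactate dehydrogenase reduces the pyruvate, to lactate, which leaves the cell through monocarboxylate transporters. When oxygen is plentiful, prolyl hydroxylases modify the alpha subunits of the hypoxia-inducible factors (HIF), which the VHL protein then targets for destruction. When oxygen is scarce the alpha subunits accumulate, pair with ARNT on DNA and raise the transcription of glycolytic enzymes and of genes for pH balance, blood vessel growth, mitochondrial turnover and collagen modification, the hydroxylases themselves included.

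The tables of the genotype experiment held 14636861 to 15473180 reads assigned to genes per library and those of the Senexin B experiment 27075937 to 28405118. Levels are given as CPM, which is edgeR's read count of a gene relative to all reads assigned to genes in the library, scaled with TMM factors separately in each experiment. The genotype libraries were labelled with the name of a mammary tumour line, 4T1, but 5 mammary markers (Krt14, Krt5, Elf5, Csn2 and Wap) together reached at most 0.876 CPM in any library of the series, and 9 intestinal epithelial markers such as Epcam and Vil1 summed to between 9354 and 15395 CPM. Markers of fibroblasts, leukocytes and endothelium summed to at most 4.61 CPM each. Cdk19 was at 47.6, 50.1 and 48.6 CPM in WT and at 28.1 and 28.3 CPM in Cdk19-/- replicates 2 and 3, but at 48.8 CPM in the library labelled Cdk19-/- replicate 1. In the double knockout it was at 27.0 and 23.8 CPM in replicates 1 and 2 and at 51.7 CPM in the library labelled double knockout replicate 3. The Cdk19 counts of these 2 libraries thus go against their labels, and the double knockout and Cdk19-/- comparisons were also fitted without both. A count over the whole gene does not show whether a line was edited, and the paper reports sequencing and Western blotting of its Cdk19 lines. Cdk8 stood at 35.8 to 43.2 CPM in WT and at 42.4 to 57.3 CPM in Cdk8-/-, which checks nothing, since only exon 2 is removed and the counts cover the whole gene.

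All but 1 of the 36 genes were measurable in both experiments. The exception was Slc2a3, which encodes the glucose transporter GLUT3. It had 0 to 4 reads in each Senexin B library, too few to be tested there, and 0 to 14 reads in the genotype libraries. Per kilobase of exon, the highest levels in DMSO at 16 h were 1043 RPKM (CPM divided by exon length in kilobases) for Gapdh, 994 for Aldoa, 702 for Ldha, 618 for Pgk1 and 559 for Pkm. In WT of the genotype experiment Aldoa led with 397 RPKM, followed by Ldha with 274, Tpi1 with 241 and Pkm with 153, while Gapdh ranked 30th with 3.64 RPKM.

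The level of Gapdh differed 287-fold between DMSO at 16 h and WT, that of Pgk1 59.8-fold and that of Pgam1 63.9-fold, against a median of 2.50-fold over 35 members. These 3 enzymes have many near-identical pseudogene copies in the mouse genome, and reads that matched several places were not counted. Such reads made up 19.5% to 22.9% of each genotype library and 7.25% to 8.17% of each Senexin B library. Their part in the low counts was not tested, and the levels of these 3 genes in the genotype experiment are uncertain.

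Senexin B lowered most of the 35 measurable genes after 24 h. Each difference between groups is a log2 fold change from edgeR's quasi-likelihood test over all genes, and a gene was called when its p-value, adjusted by the Benjamini-Hochberg method over all genes tested, was under 0.05. At 24 h 30 of the 35 genes were called lower and none was called higher, while of all 15467 genes tested 12.7% were called lower and 14.8% higher, 27.5% in all. The median log2 fold change over the 35 genes was -0.52, against 0.0011 over all genes, and all 35 values were below 0. After 16 h 20 of the 35 were called lower and none higher, against 3.39% of all genes called lower and 4.36% called higher (7.75% in either direction), with a median of -0.38. RNA from whole organoids cannot tell fewer cells of a type from less RNA per cell.

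**Figure D1:**
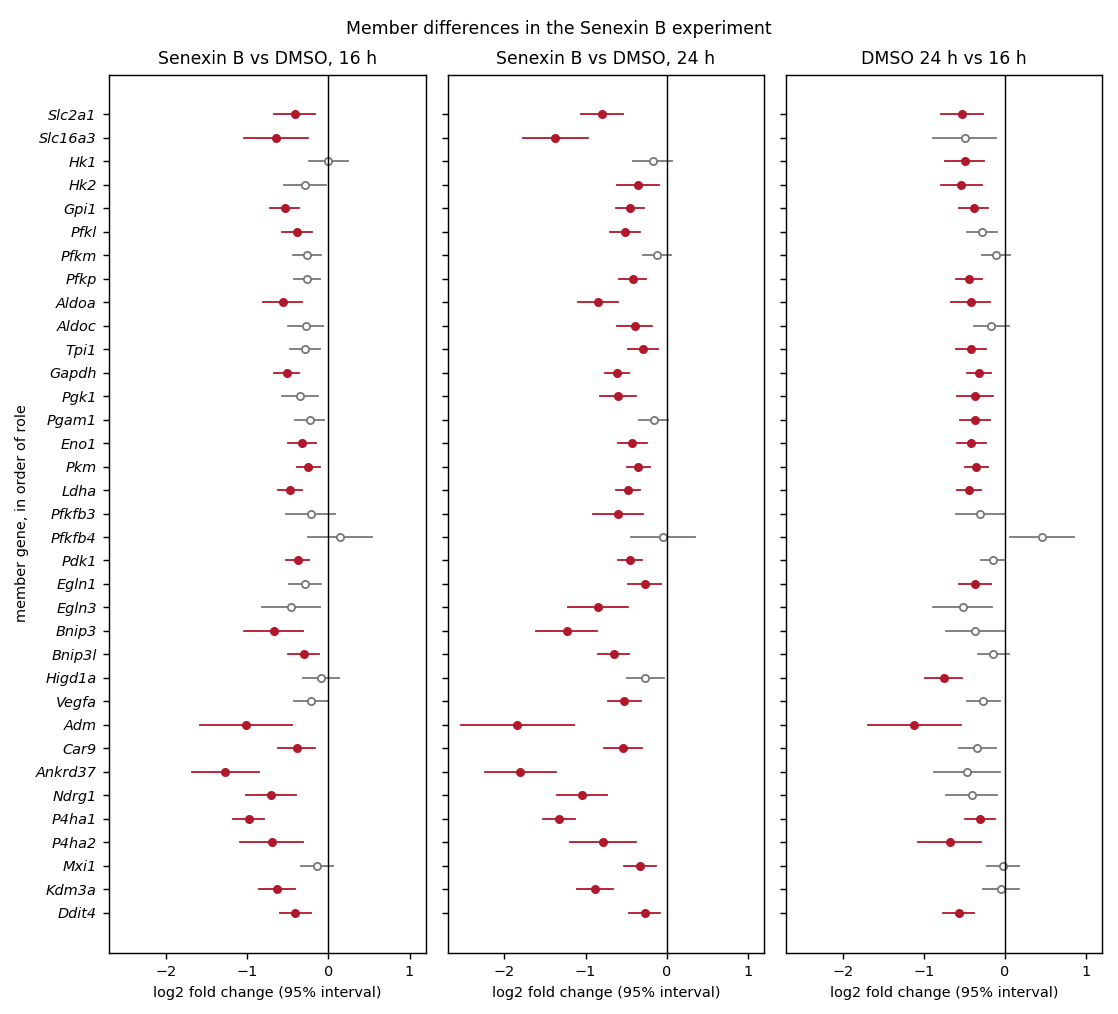
Log2 fold change (horizontal axis) of the 35 measurable genes, in order of role, for Senexin B against DMSO at 16 h and at 24 h and for DMSO at 24 h against 16 h, with 95% intervals (bars) and called genes as filled points, n = 3 libraries a group. At 24 h all 35 points lie below 0 and 30 are called.

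The replicates did not overlap between the groups for most of these genes. At 16 h every Senexin B library was below every DMSO library for 28 of the 35 genes, against 12.6% of all genes, and at 24 h for 30, against 22.1%. Relative to the mean of DMSO at 16 h, the median log2 level of the 35 genes was -0.37, -0.38 and -0.35 in the 3 Senexin B libraries of 16 h, -0.31, -0.42 and -0.40 in DMSO at 24 h, and -0.71, -0.96 and -0.98 in Senexin B at 24 h. All 6 Senexin B libraries were thus lower than the DMSO libraries of the same time.

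**Figure D2:**
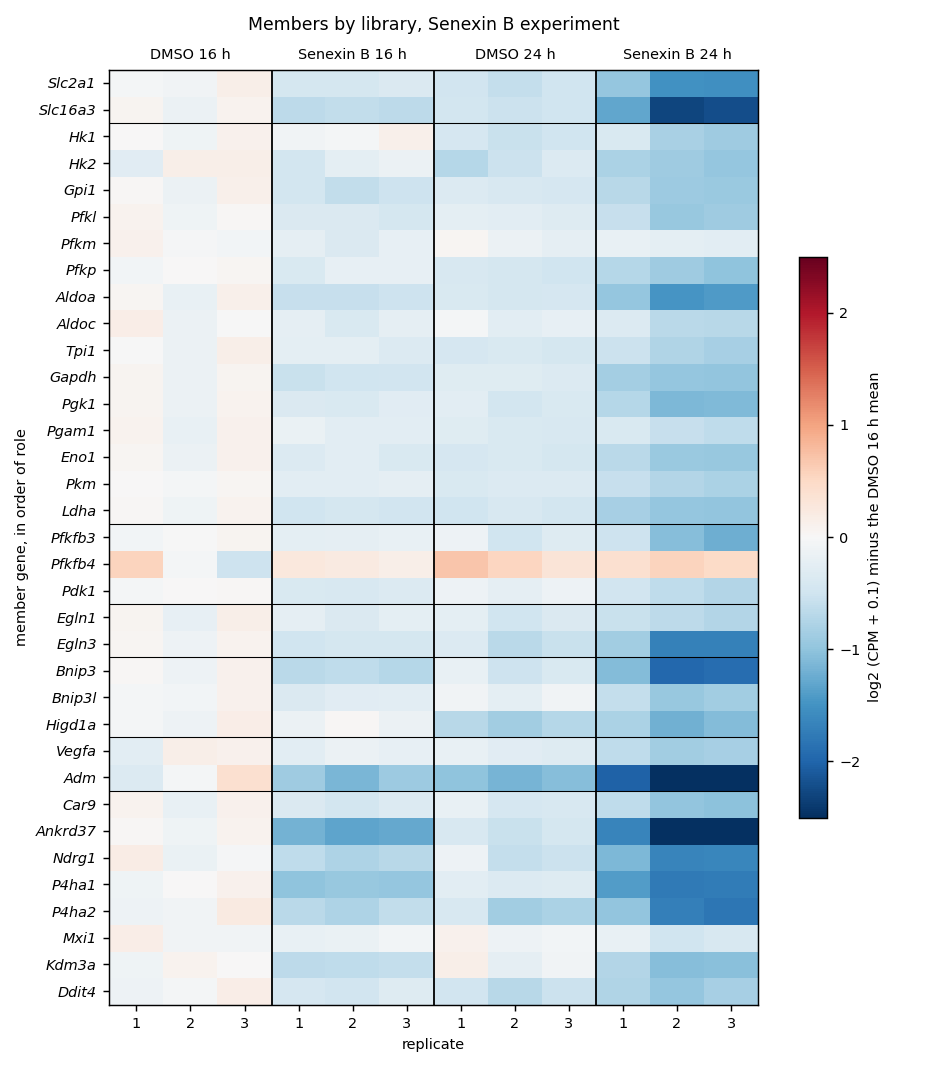
Log2 level of each of the 35 genes (rows, in order of role) in each library of the Senexin B experiment (columns), relative to the gene's mean in DMSO at 16 h. The 3 columns of Senexin B at 24 h are the lowest, with medians of -0.71, -0.96 and -0.98, and replicate 1 is the least low of them.

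Both measurable transporters fell. Slc2a1, which encodes GLUT1, the main glucose importer of many epithelial cells, was at 238, 233 and 273 CPM in DMSO and at 183, 182 and 193 CPM in Senexin B at 16 h (log2 fold change -0.42). At 24 h it was at 178, 164 and 174 CPM in DMSO and at 126, 86.8 and 85.0 CPM in Senexin B, a log2 fold change of -0.79. The 2 treatments did not overlap at either time.

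Slc16a3 encodes MCT4, the monocarboxylate transporter that exports lactate. It was at 170, 144 and 170 CPM in DMSO and at 102, 104 and 103 CPM in Senexin B at 16 h, and at 117, 112 and 115 CPM against 65.2, 32.7 and 34.3 CPM at 24 h. Its log2 fold change was -0.65 ± 0.18 (SE, n = 3) at 16 h (adjusted p = 0.0433) and -1.37 ± 0.19 at 24 h (adjusted p = 0.000198), a 2.59-fold lower level at the later time. Replicate 1 of Senexin B at 24 h was well above replicates 2 and 3, yet below all DMSO libraries.

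Of the 15 glycolytic enzymes 12 fell at 24 h, and the log2 fold changes of all 15 lay between -0.85 and -0.12. At 16 h 7 of the 15 were called lower. Those called at both times were Gpi1, glucose-6-phosphate isomerase (-0.54 at 16 h and -0.45 at 24 h), Aldoa, aldolase A (-0.56 and -0.85), Gapdh (-0.51 and -0.61), Eno1, enolase (-0.33 and -0.43), Pkm, pyruvate kinase (-0.25 and -0.35), and Ldha, lactate dehydrogenase A (-0.47 and -0.48). The last of the 7 was Pfkl, the liver-type phosphofructokinase of the committed step (-0.38 and -0.52).

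Aldoa moved most among the enzymes. It was at 2989, 2537 and 3153 CPM in DMSO and at 1931, 1941 and 2004 CPM in Senexin B at 16 h, and at 2198, 2114 and 2150 CPM against 1474, 1033 and 1087 CPM at 24 h. Ldha was at 2371, 2142 and 2458 CPM against 1643, 1722 and 1666 CPM at 16 h, and at 1646, 1767 and 1699 CPM against 1304, 1193 and 1179 CPM at 24 h. Within a time the treatments did not overlap for either gene.

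Other enzymes were called at 24 h and not at 16 h, namely Hk2, the inducible hexokinase (-0.35), Pfkp, the platelet-type phosphofructokinase (-0.42), Aldoc, aldolase C (-0.40), Tpi1, triosephosphate isomerase (-0.29), and Pgk1, phosphoglycerate kinase (-0.60). Their values at 16 h were -0.29, -0.26, -0.28, -0.29 and -0.35. The difference between the times was not called for any of the 5 (adjusted p of 0.498 or above), so they are not shown to respond later. With the replicate number as a block fitted separately within each time, which pairs each Senexin B library with the DMSO library of its number, all 5 were also called lower at 16 h (adjusted p = 0.0337 for Hk2, 0.00801 for Pfkp, 0.00906 for Aldoc, 0.0294 for Tpi1 and 0.00459 for Pgk1). The remaining 3 enzymes were not called at either time: at 24 h Hk1, the constitutive hexokinase, had a log2 fold change of -0.18 (95% interval -0.42 to 0.07), Pfkm, the muscle-type phosphofructokinase, -0.12 (-0.29 to 0.06), and Pgam1, phosphoglycerate mutase, -0.16 (-0.34 to 0.02). At 16 h they were at -0.0013, -0.26 and -0.23, and the block within each time called Pfkm (adjusted p = 0.017) and Pgam1 (adjusted p = 0.032) lower at 16 h. Without Senexin B replicate 1 of 24 h, Hk1 was called lower at 24 h (-0.35, adjusted p = 0.0131).

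The regulators of glycolytic flux did not move as one. Pdk1, the kinase that shuts pyruvate out of the mitochondrial dehydrogenase, fell at both times (-0.38 and -0.45). Pfkfb3, which makes the allosteric activator of phosphofructokinase, was called at 24 h (-0.60) and was at -0.22 at 16 h (95% interval -0.52 to 0.08). Pfkfb4, another isoform of that enzyme, was the gene nearest to 0 at 24 h: it was at 103, 93.3 and 79.7 CPM in DMSO and at 84.4, 93.5 and 89.3 CPM in Senexin B, overlapping, with a log2 fold change of -0.05 (95% interval -0.44 to 0.35). At 16 h it was the only one of the 35 above 0, at 0.14, and its DMSO libraries were the most spread of all members, at 94.3, 61.8 and 44.7 CPM. Without DMSO replicate 1 of 16 h, Pfkfb4 was called higher with Senexin B (0.47, adjusted p = 0.0265).

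The HIF hydroxylases, which hydroxylate HIF alpha subunits and are themselves HIF targets, were called at 24 h and not at 16 h. Egln3 was at 382, 304 and 331 CPM in DMSO and at 266, 150 and 150 CPM in Senexin B (-0.85), and Egln1 had a smaller difference (-0.27). At 16 h the values were -0.46 for Egln3 (adjusted p = 0.117) and -0.29 for Egln1 (adjusted p = 0.0744), with non-overlapping libraries for both, and with the block within each time both were called (adjusted p = 0.00647 and 0.00989).

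Of the mitochondrial proteins, the mitophagy receptors Bnip3 and Bnip3l fell at both times. Bnip3 was at 83.8, 74.6 and 87.6 CPM in DMSO and at 51.0, 52.9 and 50.2 CPM in Senexin B at 16 h, and at 71.5, 56.8 and 62.5 CPM against 38.3, 20.8 and 21.9 CPM at 24 h. Its log2 fold change was -0.67 ± 0.17 (adjusted p = 0.025) and then -1.24 ± 0.17 (adjusted p = 0.000254), and that of Bnip3l was -0.31 and then -0.66. Higd1a, a small protein of the mitochondrial inner membrane, was not called at 16 h (-0.09) nor at 24 h (-0.27, adjusted p = 0.076). With the block within each time the difference of Higd1a at 24 h passed the threshold (adjusted p = 0.0236), as it did without Senexin B replicate 1 of 24 h (-0.39, adjusted p = 0.014).

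The secreted factors were adrenomedullin (Adm), a vasodilator peptide, and Vegfa, the main growth factor of blood vessels. Adm was at 10.4, 12.8 and 17.5 CPM in DMSO and at 7.14, 5.98 and 7.02 CPM in Senexin B at 16 h, and at 6.59, 5.89 and 6.30 CPM against 3.19, 1.17 and 0.881 CPM at 24 h. With a log2 fold change of -1.02 ± 0.27 at 16 h (adjusted p = 0.0317) and -1.84 ± 0.32 at 24 h (adjusted p = 0.0011), Adm had the largest fall of the 35 genes at 24 h, 3.58-fold, and the largest SE. Without Senexin B replicate 1 of 24 h its fall was 6.07-fold. Vegfa was called at 24 h (-0.52) and was at -0.21 at 16 h (adjusted p = 0.2).

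All 8 of the other HIF targets were called lower at 24 h and 7 of them at 16 h. Ankrd37, an ankyrin-repeat protein, was at 77.4, 70.8 and 81.1 CPM in DMSO and at 33.6, 30.4 and 31.2 CPM in Senexin B at 16 h, and at 57.8, 51.9 and 56.0 CPM against 24.3, 11.9 and 11.2 CPM at 24 h. Its log2 fold change was -1.27 ± 0.20 at 16 h (adjusted p = 0.00115), the largest of that time, and -1.80 ± 0.20 at 24 h (adjusted p = 5.49e-05). Of the exon sequence of Ankrd37, 26.4% lies opposite exons of Ufsp2 and Lrp2bp, so without strand its reads cannot be fully told apart. The Senexin B libraries kept 87.9% to 90.5% of stranded reads on one strand, whereas the genotype libraries held no strand information (49.6% to 49.7%).

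P4ha1 and P4ha2 encode the catalytic subunits of collagen prolyl 4-hydroxylase. P4ha1 was at 63.9, 69.2 and 73.7 CPM in DMSO and at 34.0, 35.5 and 35.2 CPM in Senexin B at 16 h, and at 57.3, 54.4 and 55.3 CPM against 26.1, 20.1 and 20.4 CPM at 24 h. It had the lowest adjusted p of the 35 genes at both times, with a log2 fold change of -0.98 ± 0.09 at 16 h (adjusted p = 2.47e-05) and -1.33 ± 0.09 at 24 h (adjusted p = 1.49e-06). P4ha2 was at 31.3, 32.2 and 40.1 CPM against 21.5, 20.0 and 22.4 CPM at 16 h (-0.70) and at 26.1, 18.8 and 19.7 CPM against 17.3, 10.4 and 9.69 CPM at 24 h (-0.79). Both subunits were separated from DMSO at both times.

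Ndrg1, a stress-responsive gene strongly raised by hypoxia, fell at both times. It was at 1109, 876 and 965 CPM in DMSO and at 633, 571 and 605 CPM in Senexin B at 16 h (-0.71), and at 894, 647 and 674 CPM against 449, 310 and 315 CPM at 24 h (-1.04). Kdm3a, a histone H3 lysine 9 demethylase, fell by 0.63 and 0.89 on the log2 scale, Car9, the cell-surface carbonic anhydrase, by 0.39 and 0.54, and Ddit4, an inhibitor of mTORC1, by 0.41 and 0.27. Mxi1, an antagonist of MYC, was called at 24 h (-0.33) and was at -0.14 at 16 h.

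**Figure D3:**
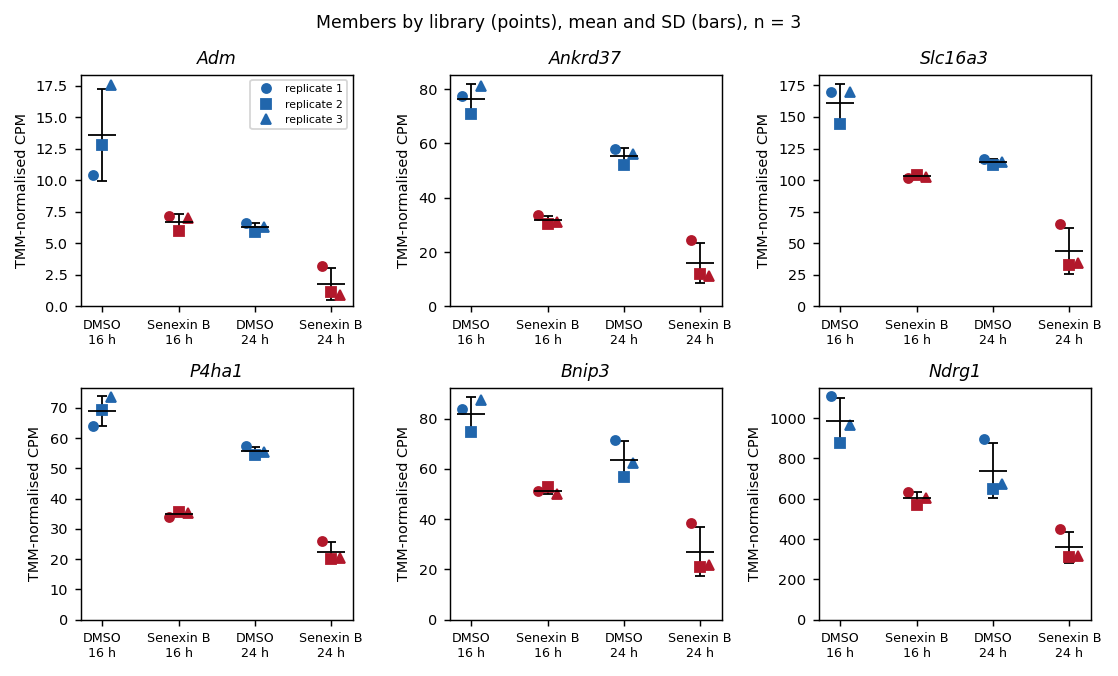
CPM (vertical axis, from 0) of the members with the largest differences in each library (points) of the 4 groups of the Senexin B experiment, with the mean and SD (bars), n = 3. In Ankrd37 the Senexin B libraries of 16 h lie between 30.4 and 33.6 CPM and all DMSO libraries at or above 51.9 CPM.

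The promoters of 5 of the 6 genes with the largest falls at 24 h are shown next, with that of Pfkfb4, the gene nearest to 0. They were chosen by these values, so the number of motifs in them is a description. Ndrg1 is the sixth, for which no window was at hand, as for Slc2a3 and Bnip3l. Each window is RefSeq sequence of GRCm38.p6 in the direction of transcription, from 250 bases before to 50 bases after an annotated start, and capitals mark ACGTG or GCGTG on either strand, the core that HIF recognises. The windows are chr7:110627407-110627706 (plus strand) for Adm, chr8:45999801-46000100 (minus) for Ankrd37, chr11:120948817-120949116 (plus) for Slc16a3, chr10:59323046-59323345 (plus) for P4ha1, chr7:138909457-138909756 (minus) for Bnip3 and chr9:108991652-108991951 (plus) for Pfkfb4.
Adm: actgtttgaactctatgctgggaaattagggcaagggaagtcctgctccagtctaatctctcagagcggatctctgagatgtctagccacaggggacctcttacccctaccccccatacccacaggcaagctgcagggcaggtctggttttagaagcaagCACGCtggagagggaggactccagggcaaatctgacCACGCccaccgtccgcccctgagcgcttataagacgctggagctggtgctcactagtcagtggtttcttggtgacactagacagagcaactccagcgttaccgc
Ankrd37: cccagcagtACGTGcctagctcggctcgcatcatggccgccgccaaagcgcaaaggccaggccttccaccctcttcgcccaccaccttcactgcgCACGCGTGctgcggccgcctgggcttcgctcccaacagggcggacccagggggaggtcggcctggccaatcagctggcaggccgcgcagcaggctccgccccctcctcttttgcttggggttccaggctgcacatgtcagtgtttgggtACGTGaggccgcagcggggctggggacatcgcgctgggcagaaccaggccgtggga
Slc16a3: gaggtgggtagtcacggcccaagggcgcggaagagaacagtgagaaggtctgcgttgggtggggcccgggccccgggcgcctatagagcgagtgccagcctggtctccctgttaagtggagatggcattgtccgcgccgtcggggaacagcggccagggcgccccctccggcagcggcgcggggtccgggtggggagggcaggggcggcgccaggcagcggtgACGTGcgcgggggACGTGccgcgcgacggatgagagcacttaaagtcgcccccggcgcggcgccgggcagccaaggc
P4ha1: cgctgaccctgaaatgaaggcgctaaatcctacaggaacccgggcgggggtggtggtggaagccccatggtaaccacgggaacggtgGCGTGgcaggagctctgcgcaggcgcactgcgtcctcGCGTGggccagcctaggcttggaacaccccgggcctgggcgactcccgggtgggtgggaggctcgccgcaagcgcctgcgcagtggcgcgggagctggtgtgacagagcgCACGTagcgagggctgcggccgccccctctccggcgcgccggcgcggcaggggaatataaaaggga
Bnip3: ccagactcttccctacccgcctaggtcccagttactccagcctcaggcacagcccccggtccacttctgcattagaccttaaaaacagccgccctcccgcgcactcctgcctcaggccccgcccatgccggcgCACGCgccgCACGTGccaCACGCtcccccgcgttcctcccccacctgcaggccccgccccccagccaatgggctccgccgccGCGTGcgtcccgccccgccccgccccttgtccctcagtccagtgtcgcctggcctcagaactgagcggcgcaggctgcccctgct
Pfkfb4: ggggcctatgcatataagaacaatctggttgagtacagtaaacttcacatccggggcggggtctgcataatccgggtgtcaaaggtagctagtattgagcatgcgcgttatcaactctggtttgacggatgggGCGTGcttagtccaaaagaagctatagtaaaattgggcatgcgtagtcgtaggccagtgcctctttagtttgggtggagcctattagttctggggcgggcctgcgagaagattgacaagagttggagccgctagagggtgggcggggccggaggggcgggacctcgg

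Adm held 2 such cores, Ankrd37 4, Slc16a3 2, P4ha1 3 and Bnip3 5, of which 2 lie within one palindrome CACGTG, which holds ACGTG on both strands. Pfkfb4 held 1. Of other members, Gpi1 and Tpi1 held 0 and were called lower at 24 h, while Hk1 held 5 in one of its windows and Pgam1 3 without being called. The genes named here are examples only. Of the 33 members with at least 1 window, 31 (93.9%) had ACGTG or GCGTG in a window, against 12628 of 27025 genes (46.7%) with promoter windows. The members were listed by name for their function, many as known HIF targets, so these shares describe the list and test nothing. ACGTG alone was found in 72.7% of the members and 21.8% of all genes, GCGTG in 69.7% and 35.2%, and CACGTG in 12.1% and 8.09%. Counted per window, over 51 windows of the members and 32851 of all genes, the shares were 54.9% against 19.6% for ACGTG, 54.9% against 32.4% for GCGTG and 7.84% against 7.15% for CACGTG. The members' windows were richer in G and C, with a median of 62.3% against 52.7% per window, and genes with several starts have several windows. A match describes letters in a window and not a bound site.

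DMSO organoids also changed between 16 h and 24 h. Of the 35 genes 19 were called lower at 24 h than at 16 h in DMSO alone and none higher, against 6.59% of all genes called lower and 4.52% higher (11.1% in either direction), with a median log2 fold change of -0.37. The libraries did not overlap for 27 of the 35, against 15.8% of all genes. Among the glycolytic enzymes 12 of 15 were called: Hk1 (-0.50), Hk2 (-0.54), Gpi1 (-0.39), Pfkp (-0.44), Aldoa (-0.43), Tpi1 (-0.41), Gapdh (-0.32), Pgk1 (-0.37), Pgam1 (-0.37), Eno1 (-0.42), Pkm (-0.35) and Ldha (-0.45). Of the 20 other measurable genes 7 were called: Slc2a1 (-0.53), Egln1 (-0.37), Higd1a (-0.76), Adm (-1.12), P4ha1 (-0.31), P4ha2 (-0.68) and Ddit4 (-0.57).

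Higd1a was at 55.0, 51.7 and 63.6 CPM in DMSO at 16 h and at 35.1, 31.1 and 34.5 CPM at 24 h (adjusted p = 0.00165). Kdm3a was at 189, 216 and 203 CPM and then at 225, 172 and 189 CPM in DMSO, overlapping (-0.05, 95% interval -0.27 to 0.17), and fell with Senexin B at both times. Pfkfb4 was the 1 gene with a positive value (0.46, adjusted p = 0.12). It was called higher without DMSO replicate 1 of 16 h (0.79, adjusted p = 0.00165). With the replicate number as a block over both times it was also called higher (0.49, adjusted p = 0.023). The numbers do not pair every DMSO library over time. This comparison shares its DMSO libraries with both Senexin B comparisons, so the 3 sets of values are not independent. Leaving out DMSO replicate 3 of 16 h reduced the 19 calls to 6, while 2.75% of all genes were called in either direction. Leaving out DMSO replicate 2 or replicate 3 of 24 h reduced the 19 calls to 12. In those fits 6.96% and 6.01% of all genes were called, against 11.1% with all libraries. Pfkp, Eno1, Pkm, Ldha, Higd1a and Ddit4 kept the call whichever library was left out.

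Whether the Senexin B effect differed between the times depended on the fit. With all libraries and no block, the test of the difference (24 h minus 16 h) called 0 of the 35 genes and 0 of 15467 genes (0%) with edgeR, while 6 of the 35 and 1995 of all genes had an unadjusted p under 0.05 and DESeq2 called 0 of the 35 and 67 of all. The median difference was -0.17 and 30 of the 35 values were below 0. The largest were Adm (-0.82, 95% interval -1.73 to 0.08) and Slc16a3 (-0.73, -1.28 to -0.17, adjusted p = 0.296).

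Replicate 1 of Senexin B at 24 h was the highest of its 3 libraries in 34 of the 35 genes, whereas it was the highest in 39.4% of all genes. DMSO replicate 1 of 24 h was likewise the highest of its group in 29 of 35, against 38.1% of all genes. Without the Senexin B library, 31 of the 35 were called lower at 24 h, against 24.2% of all genes called in either direction, and the test of the difference between the times called 5, against 26 of all genes (0.165%): Slc16a3 (-1.12, adjusted p = 0.00118), Ankrd37 (-0.98, 0.00347), Bnip3 (-0.90, 0.0138), Egln3 (-0.72, 0.0368) and Slc2a1 (-0.59, 0.0488). The number called at 16 h was 20 with all libraries, against 7.75% of all genes called in either direction. It fell to 11 without DMSO replicate 3 (5.70% of all genes) and to 11 without Senexin B replicate 1 (4.78%). Without Senexin B replicate 2 it was 9 (4.18%) and without Senexin B replicate 3 it was 10 (4.30%). The 9 genes called whichever library was left out at 16 h were Gpi1, Aldoa, Gapdh, Ldha, Pdk1, Ankrd37, Ndrg1, P4ha1 and Kdm3a. At 24 h 24 of the 30 were, and Hk2, Aldoc, Tpi1, Egln1, Mxi1 and Ddit4 each lost the call without 1 or more of the 6 libraries. DESeq2 did not call Adm or Slc16a3 at 16 h. With the block within each time, 29 genes were called lower at 16 h and 31 at 24 h. Of all genes 15.1% and 38.0% were then called in either direction. The test of the difference between the times with this block called Bnip3 (-0.60, adjusted p = 0.0489), against 325 of all genes (2.1%).

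The transcripts of the HIF proteins themselves gave mixed values. Hif1a was at 41.6, 47.6 and 47.8 CPM in DMSO and at 49.8, 49.2 and 53.3 CPM in Senexin B at 24 h (0.15, 95% interval -0.08 to 0.38), and at 16 h its log2 fold change was 0.29 (adjusted p = 0.118). Epas1, which encodes HIF-2 alpha, was at -0.07 at 16 h and -0.18 at 24 h (adjusted p = 0.0679), and Vhl was at -0.14 and -0.17. Arnt, the shared partner subunit, fell at 24 h (-0.33, adjusted p = 0.00328), from 78.0, 74.5 and 78.2 CPM to 60.3, 60.8 and 62.4 CPM. In a list of 11 genes of the HIF machinery, 1 was called lower at 16 h, Hif3a (-0.65), and 4 at 24 h, Hif3a (-1.36), Ep300, a coactivator (-0.61), Arnt, and Cited2, which competes with HIF for that coactivator (-0.32).

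A further list held 28 HIF targets outside the 36, of which 24 could be tested. In Senexin B 9 of them were called lower at 16 h and 13 at 24 h, none higher, with medians of -0.29 and -0.34. Those called at 24 h included Hmox1, heme oxygenase 1 (-1.33), Plod2, a lysyl hydroxylase of collagen (-1.22), and Ero1l, an oxidase of the endoplasmic reticulum (-1.12). Those called at 16 h included Gbe1, the glycogen branching enzyme (-1.01), Ero1l (-0.90) and Hmox1 (-0.83). In DMSO 13 of the 24 were called lower at 24 h than at 16 h and 19 were below 0, with a median of -0.32.

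Neighbouring carbohydrate pathways had calls in both directions with Senexin B. Of 9 genes of gluconeogenesis and fructose breakdown, those lower at 16 h included Tkfc, triokinase (-0.65), and 2 were lower at 24 h, Pcx, pyruvate carboxylase (-0.56), and Tkfc (-0.30). Of 14 tested genes of pyruvate entry into mitochondria, the phosphatase Pdp1, which opposes Pdk1, rose at both times (0.59 and 0.62), while Pdhb fell at 16 h (-0.23) and Pdpr at 24 h (-0.55). Of 9 genes of the pentose phosphate pathway, H6pd fell at both times (-0.37 and -0.45) and 3 rose at 24 h, Rpia (0.43), Pgls (0.37) and Tigar, a phosphatase that diverts sugar into the pathway (0.36). In DMSO 5 of these 9 pentose phosphate genes were called lower at 24 h than at 16 h and none higher (median -0.28). Of the 14 genes of pyruvate entry 2 were called lower and 1 higher. Of the 9 genes of gluconeogenesis and fructose breakdown 0 were called.

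Markers of cell types moved with Senexin B too. At 16 h 3 of 9 epithelial markers were called higher and 1 of 5 stem cell markers was called lower. Marker calls of the other lists are given here for 24 h only. At 24 h 4 of 5 Paneth cell markers fell with Senexin B, among them Lyz1 (-1.02), and their sum was 2067 to 2180 CPM in DMSO and 972 to 1327 CPM in Senexin B, with no marker at 0. Of 5 stem cell markers Lgr5 fell (-0.97) and the others were not called, with a median of 0.05. Of the other lists, 4 of 9 epithelial, 3 of 5 enteroendocrine and 3 of 4 tuft cell markers rose and none fell, and 3 of 6 enterocyte and 3 of 6 goblet cell markers rose while 1 of each fell. Of 5 proliferation genes Pcna rose (0.28) and the others were not called. The part of these shifts in the results on glycolytic and HIF target genes was not tested.

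In the knockouts few of the 36 genes were called, and the spread between replicates was wide in Cdk8-/- and in the double knockout. In the double knockout 1 of the 36 genes was called against WT, higher, while 9.41% of all 15602 genes were called higher and 7.9% lower, 17.3% in all. The median log2 fold change over the 36 genes was 0.02, and 18 values were below 0. In Cdk8-/- 2 of 36 were called, both higher, against 2.79% of all genes called higher and 2.36% lower (5.15% in either direction). In Cdk19-/- 0 of 36 and 0 of all genes (0%) were called with edgeR, while 3 of 36 and 1691 of all had an unadjusted p under 0.05 and DESeq2 called 1 of the 36, Mxi1, and 298 of all. The difference between the knockout and the inhibitor effects was not tested, since the 2 experiments were made and normalised separately.

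The hexokinases, which trap glucose in the cell by phosphorylating it, were the genes called in Cdk8-/-. Hk1 (chr10:62268855-62379908, GRCm38) was at 23.8, 27.4 and 26.7 CPM in WT, at 36.5, 48.8 and 48.1 CPM in Cdk8-/-, at 27.7, 28.2 and 29.0 CPM in Cdk19-/- and at 57.5, 38.6 and 53.2 CPM in the double knockout. All 6 libraries of Cdk8-/- and of the double knockout lay above all 6 others. Its log2 fold change was 0.78 ± 0.15 in Cdk8-/- (adjusted p = 0.0127), 0.13 in Cdk19-/- (95% interval -0.20 to 0.45) and 0.94 ± 0.15 in the double knockout (adjusted p = 0.00193). Against Cdk19-/- the double knockout was higher by 0.81 (adjusted p = 0.00224).

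Hk2 (chr6:82725025-82774454) was at 40.0, 42.8 and 29.2 CPM in WT, at 52.8, 84.7 and 65.8 CPM in Cdk8-/-, at 60.1, 52.6 and 52.3 CPM in Cdk19-/- and at 53.6, 58.6 and 43.1 CPM in the double knockout. Each of the 3 knockout groups lay above WT, and the difference was called in Cdk8-/- (0.86 ± 0.18, adjusted p = 0.0212) but not in Cdk19-/- (0.56, adjusted p = 0.252) or in the double knockout (0.47, adjusted p = 0.0966). Leaving out WT replicate 1 or Cdk8-/- replicate 3 ended the call of both hexokinases in Cdk8-/- (0 of 36 called). In these fits 1.23% and 2.63% of all genes were called, against 5.15% with all libraries. Leaving out WT replicate 3 or Cdk8-/- replicate 2 ended the call of Hk2 (1 of 36 called, against 2.09% and 4.39% of all genes). The call of Hk1 in the double knockout held whichever library was left out, with a highest adjusted p of 0.014, and without double knockout replicate 1 Pdk1 was called as well, lower (-0.82, adjusted p = 0.0298). Slc2a1 was above WT in all 3 Cdk8-/- libraries, at 72.0, 150 and 63.4 CPM against 55.2, 58.7 and 53.6 CPM, without passing the test (0.77, adjusted p = 0.223).

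**Figure D4:**
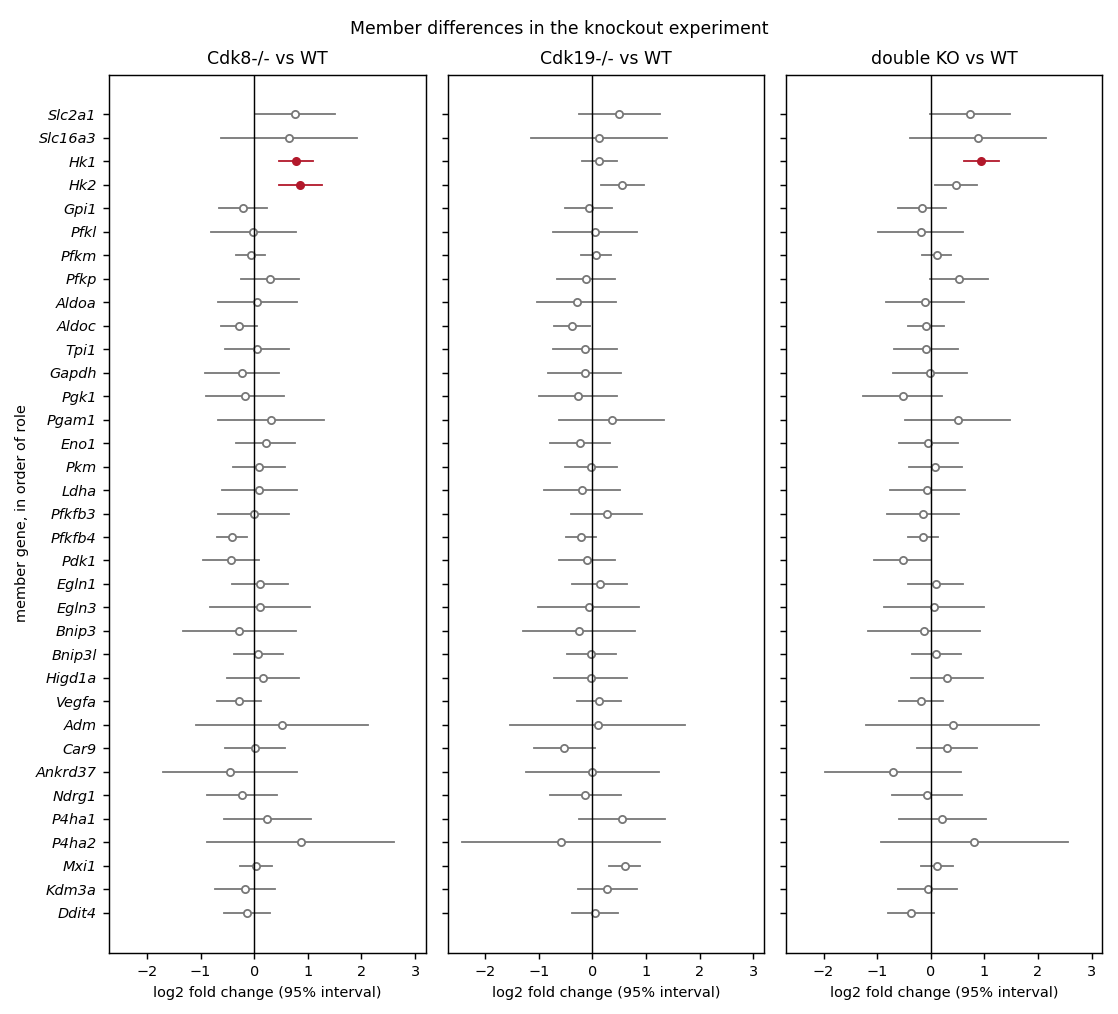
Log2 fold change (horizontal axis) of the 36 genes except Slc2a3, in order of role, for Cdk8-/-, Cdk19-/- and the double knockout against WT. Bars are 95% intervals, filled points are called genes, and n = 3 libraries a group. Hk1 and Hk2 are called in Cdk8-/-, Hk1 in the double knockout and none in Cdk19-/-.

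Between the double knockout and Cdk8-/- 0 of the 36 genes were called, against 0.0256% of all genes, with values between -0.48 and 0.28. With edgeR 0 of the 36 had an unadjusted p under 0.05, and DESeq2 called 0 of the 36 and 402 of all. Without Cdk8-/- replicate 3, edgeR called 0 of the 36 and 839 of all genes (5.28%). Without the 2 libraries whose Cdk19 counts went against their labels 0 of the 36 and 22 of all were called, and 3 of the 36 had an unadjusted p under 0.05. Against Cdk19-/- 3 of the 36 were called, 2 higher and 1 lower, against 14.4% of all genes called higher and 11% lower (25.3% in either direction). Beside Hk1 these were Car9 (0.83, adjusted p = 0.0376) and Mxi1 (-0.49, adjusted p = 0.0201). Car9 was at 302, 305 and 296 CPM in WT, at 257, 379 and 278 CPM in Cdk8-/-, at 290, 154 and 184 CPM in Cdk19-/- and at 505, 359 and 247 CPM in the double knockout. The groups compared thus overlapped, but only through the 2 libraries whose Cdk19 counts went against their labels (290 and 247 CPM). Mxi1 was at 89.9, 97.0 and 77.9 CPM in WT, at 95.2, 97.6 and 77.4 CPM in Cdk8-/-, at 107, 139 and 156 CPM in Cdk19-/- and at 96.5, 96.3 and 93.9 CPM in the double knockout, and was highest in Cdk19-/-. The test of departure from additivity sets the double knockout against the summed log2 effects of both single knockouts. It called 0 of the 36, against 0.0256% of all genes (0.0192% lower and 0.00641% higher). Of the 36, 5 had an unadjusted p under 0.05, and DESeq2 called 1, Hk2. Without Cdk8-/- replicate 3, edgeR called 0 of the 36 and 2.47% of all genes. Without Cdk19-/- replicate 1 it called 0 of the 36 and 2.93%.

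The calls of Car9 and Mxi1 against Cdk19-/- were also made without the libraries whose Cdk19 counts went against their labels, and further calls were added. Without Cdk19-/- replicate 1 and double knockout replicate 3, Cdk19-/- had 2 called genes against WT, Car9 (-0.82, adjusted p = 0.033) and Mxi1 (0.75, adjusted p = 0.00733), while 666 of all genes were called (4.21%). The double knockout then had 5 called genes against Cdk19-/-, Car9 (1.34), Pfkp (0.95), Hk1 (0.73), Aldoc (0.54) and Mxi1 (-0.63), against 28.5% of all genes, and the test of departure from additivity called Car9 (1.34, adjusted p = 0.0185) and Aldoc (0.85, adjusted p = 0.0222), against 4.6% of all genes. The single call of Mxi1 in Cdk19-/- was also made when Cdk19-/- replicate 1 alone was left out (0.75, adjusted p = 0.0068). Against WT the double knockout still had Hk1 alone (0.89, adjusted p = 0.00694). With all other libraries kept, leaving out Cdk19-/- replicate 2, Cdk19-/- replicate 3 or double knockout replicate 2 left 1 call of the 3. In these fits 15.1%, 17.2% and 19.7% of all genes were called, against 25.3% with all libraries. Leaving out double knockout replicate 3 gave 5, against 24.0% of all genes. The value of Car9 ranged from 0.53, without double knockout replicate 1, to 1.12.

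The genes that fell most with Senexin B were spread widely in the knockouts. Adm was at 2.76, 3.16 and 0.908 CPM in WT, at 1.08, 6.69 and 2.06 CPM in Cdk8-/-, at 3.57, 1.89 and 1.85 CPM in Cdk19-/- and at 6.35, 1.78 and 0.975 CPM in the double knockout (0.41 against WT, 95% interval -1.21 to 2.02). Ankrd37 was at 27.2, 30.3 and 13.1 CPM in WT, at 10.7, 35.0 and 6.17 CPM in Cdk8-/- and at 24.2, 11.8 and 7.41 CPM in the double knockout (-0.71, -1.97 to 0.56). Slc16a3 was at 43.0, 51.5 and 42.1 CPM in WT, at 56.3, 127 and 31.7 CPM in Cdk8-/- and at 166, 61.8 and 24.6 CPM in the double knockout (0.88, -0.38 to 2.15). P4ha1 (0.22, -0.59 to 1.02), Bnip3 (-0.12, -1.17 to 0.92) and Ndrg1 (-0.07, -0.73 to 0.58) were not called either. Without the 2 libraries whose Cdk19 counts went against their labels none of these 6 was called, and the values were 0.83 for Adm, -0.39 for Ankrd37, 1.32 for Slc16a3, 0.47 for P4ha1, 0.21 for Bnip3 and 0.08 for Ndrg1. Over the 36 genes the median against WT was then 0.20.

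This spread ran through the genes together rather than through each alone. The median ratio of the highest to the lowest library over 36 genes was 1.41 in Cdk19-/-, 2.00 in Cdk8-/- and 2.05 in the double knockout. Over the 35 genes other than Slc2a3 it was 1.12 in WT and between 1.08 and 1.27 in the 4 groups of the Senexin B experiment. Cdk8-/- replicate 2 was the highest of its 3 libraries in 34 of 36 genes, against 37.7% of all genes, and replicate 3 the lowest in 29. Double knockout replicate 1 was the highest in 32 of 36, against 34.2% of all genes, and the library labelled double knockout replicate 3 the lowest in 30. Between Cdk8-/- replicates 2 and 3 a total of 18 of the 36 genes differed by more than 2-fold, which is 50% against 7.6% of all genes, and between double knockout replicates 1 and 3 a total of 19, 52.8% against 8.65%. Between double knockout replicates 1 and 2, whose Cdk19 counts were both low, 7 differed by more than 2-fold (19.4% against 6.97%), and the median ratio of the higher to the lower was 1.60. Between Cdk19-/- replicates 2 and 3 it was 1.14.

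Relative to WT, the median log2 level of the 36 genes was -0.11, 0.56 and -0.49 in the Cdk8-/- libraries, 0.13, -0.25 and -0.06 in Cdk19-/- and 0.49, -0.16 and -0.49 in the double knockout. The medians over all genes stayed between -0.025 and 0.030 in the same libraries. Aldoa, for example, was at 1046, 1782 and 785 CPM in Cdk8-/- and at 1644, 939 and 638 CPM in the double knockout, against 1091, 1156 and 1218 CPM in WT. P4ha2 had the widest ratio, 9.56-fold between the Cdk8-/- libraries, from 22 to 198 reads.

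**Figure D5:**
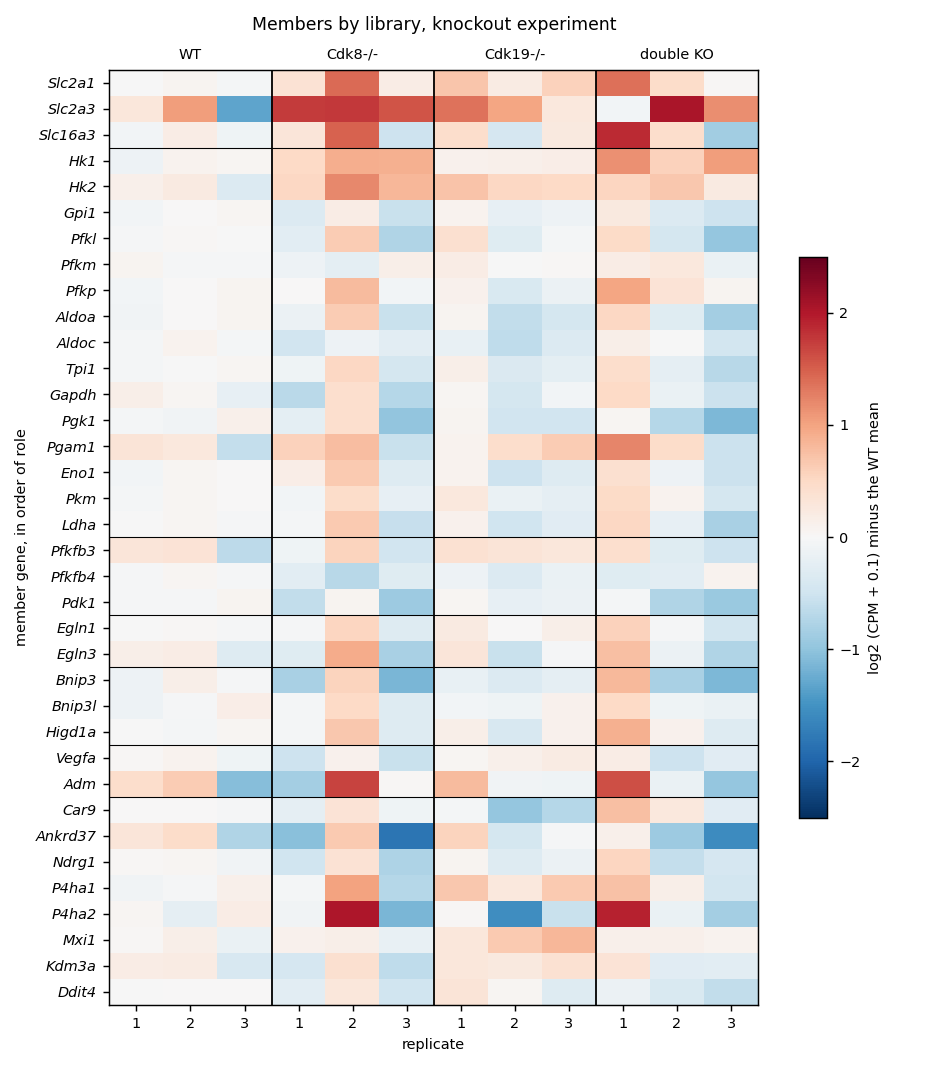
Log2 level of each of the 36 genes (rows, in order of role) in each library of the genotype experiment (columns), relative to the gene's mean in WT. Cdk8-/- replicate 2 and double knockout replicate 1 are high across most rows (medians 0.56 and 0.49), and replicate 3 of both groups is low (both -0.49).

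Other pathway genes gave few calls in the knockouts. Fbp1, fructose-1,6-bisphosphatase of gluconeogenesis, was at 183, 191 and 121 CPM in WT, at 92.2, 85.2 and 50.5 CPM in Cdk8-/- (-1.12, adjusted p = 0.042) and at 66.9, 58.7 and 46.4 CPM in the double knockout (-1.53, adjusted p = 0.0043). In the double knockout Pck2, the mitochondrial phosphoenolpyruvate carboxykinase, also fell (-0.64), as did Pdha1, a subunit of pyruvate dehydrogenase (-0.30), while Hmox1 (0.87) and the pentose phosphate enzyme Taldo1 (0.51) rose. In Cdk8-/- Pdk2, another pyruvate dehydrogenase kinase, fell (-0.50). None of the 11 HIF machinery genes was called in Cdk8-/- or in the double knockout against WT. Against WT, Hif1a was at 0.24 in the double knockout (95% interval -0.04 to 0.52), Epas1 at 0.18, Arnt at -0.0034 and Vhl at -0.08. Against Cdk19-/- the double knockout had higher Hif1a (0.59) and lower Hif1an, the asparagine hydroxylase of HIF (-0.41). Without the 2 libraries whose Cdk19 counts went against their labels these were called too (0.53 and -0.62), as were Fbp1 (-1.40), Pck2 (-0.63) and Taldo1 (0.64) against WT, but Pdha1 (-0.26, adjusted p = 0.0656) and Hmox1 (0.91, adjusted p = 0.0635) were not.

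Cell type markers moved in the knockouts too. All 5 Paneth cell markers rose in Cdk8-/- and in the double knockout, where their sum was 2620 to 3558 CPM and 1746 to 3712 CPM against 838 to 1106 CPM in WT, with no marker at 0. Of 5 stem cell markers 1 fell in Cdk8-/-, Lgr5 (-0.86), and 4 in the double knockout. In Cdk8-/- 2 of 6 enterocyte and 2 of 6 goblet cell markers rose. In the double knockout 3 of 6 enterocyte markers (median 0.92) and 1 of 6 goblet cell markers rose, 2 of 4 tuft cell markers (median -0.96) and 2 of 5 proliferation genes fell, and 1 of 9 epithelial markers rose and 1 fell. No enteroendocrine marker was called in either. Without the 2 libraries whose Cdk19 counts went against their labels, the double knockout had 3 of 5 Paneth, 4 of 6 enterocyte and 3 of 6 goblet cell markers higher, 4 of 5 stem, 3 of 4 tuft and 2 of 5 proliferation markers lower, and 3 of 9 epithelial markers higher and 2 lower. The part of these shifts in the hexokinase result was not tested.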

How the data were processed

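The authors deposited gene counts per library, made with STAR in its gene-count mode on GRCm38.p6 with Ensembl 93 annotation after FastQC. Their processing notes name STAR 2.6.0c. The tables hold raw counts in 3 columns by strand, with multimapping and unassigned reads on rows of their own, which were left out of library sizes and tests. These unassigned rows held 63.1% to 65.2% of the reads in the genotype libraries and 21.5% to 25.1% in the Senexin B libraries. The share is larger in the genotype libraries in part because they carry no strand information, so that each strand's column holds about as many reads as the other. The column for the second strand was used in both experiments. The genotype libraries were poly(A)-selected and the Senexin B libraries were described as rRNA-depleted total RNA. Symbols, positions and exon lengths came from GENCODE vM21, which placed 54079 of 54146 identifiers.

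Members and lists were chosen with earlier results of these data known. The 12 libraries of each experiment were fitted together with edgeR 4.0.16 (R 4.3.3, limma 3.58.1) by the quasi-likelihood test, with TMM factors, filterByExpr and Benjamini-Hochberg adjustment over all genes of each comparison. Standard errors are the log2 fold change over the root of F, and intervals are 95%. Every called member is named, and per-library values are given for the 6 called members with the largest log2 fold change in the double knockout against WT and in each Senexin B comparison, and the 3 largest elsewhere, among members whose mean normalised count reached 50. Values of other genes were chosen after they were seen. Some genes of the further lists are not reported here. Alternatives were DESeq2 1.42.0 (Wald test), DESeq2 size factors, no filter, counts regardless of strand, only the 2 groups, a replicate block and leaving out each library. Leaving out both libraries with WT-like Cdk19 counts and a replicate block within each time were added after seeing the data. The fit was tested on simulated counts. Same-numbered libraries of Senexin B and DMSO deviated together at each time (r 0.181 to 0.443 at 16 h and 0.249 to 0.507 at 24 h, all above 0.1). The pairing was taken from the replicate numbers in the labels. Libraries of different numbers had r of -0.337 to 0.258 at 16 h and -0.369 to 0.228 at 24 h. At 16 h Senexin B replicate 2 had r 0.258 with DMSO replicate 3 and 0.181 with DMSO replicate 2. These values set replicate 1 apart, but not replicates 2 and 3. No 2 replicates were duplicates (chi-square per gene 2.44 to 39.8 over 24 pairs). The replicates are described as biological, without separate animals being named, so p-values measure the spread between these samples. Precision is limited by 3 libraries a group. Protein sequences were not used here. Figures were drawn with Python 3.11.15 and matplotlib 3.10.9.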

Additional observations from a re-analysis of the deposited data

How the results depend on the processing

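No called member changed direction under any alternative run. The calls of single members were recomputed over all comparisons and alternatives, and 822 of these values kept the call and 132 lost it. Without a filter on low counts, 4 members were called in Cdk8-/- against WT (4.26% of all genes), 2 in Cdk19-/- (1.61%), 5 in the double knockout against WT (9.71%), 5 in the double knockout against Cdk19-/- (13.8%), 1 for departure from additivity (1.9%), 29 in DMSO at 24 h against 16 h (6.55%) and 1 for the Senexin B difference between the times (Slc16a3, against 0.426%). The DESeq2 Wald test called 1 in Cdk19-/- and 1 for departure from additivity. Without the 2 libraries whose Cdk19 counts went against their labels, 2 were called in Cdk19-/-, 5 in the double knockout against Cdk19-/- and 2 for departure from additivity. Leaving out 1 library gave 0 to 2 calls in Cdk8-/-, 0 to 1 in Cdk19-/-, 1 to 2 in the double knockout against WT, 1 to 5 against Cdk19-/-, 9 to 22 for Senexin B at 16 h, 24 to 31 at 24 h, 6 to 20 in DMSO over time and 0 to 5 for the difference between the times. Over the fits without 1 library, 1.23% to 4.39% of all genes were called in Cdk8-/- and 0% to 3.27% in Cdk19-/-. In the double knockout the share was 8.47% to 15.4% against WT and 15.1% to 27.1% against Cdk19-/-. For Senexin B it was 4.18% to 11.6% at 16 h and 16.9% to 24.2% at 24 h. It was 2.75% to 14.6% in DMSO over time and 0% to 0.165% for the difference between the times. The cause was not tested, beyond the fewer samples in each fit that leaves out libraries.

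The replicate block, as 1 term over both times, called 29 members at 16 h and 31 at 24 h, and 2293 and 5712 of all genes against 1198 and 4252 without it. Fitted within each time by the numbers in the labels, the replicate block again called 29 and 31 members, and 2338 and 5872 of all genes. For the difference between the times it called 1 member (Bnip3) and 325 of all genes (2.1%). In DMSO over time the numbers do not pair every library (r -0.0875 for replicate 2, 0.497 and 0.461 for replicates 1 and 3). There the block as 1 term called 27, of which 26 were lower, while 21.2% of all genes were called, against 11.1% without it. In the genotype comparisons the numbers do not pair either, and the block moved no count of called members. All genes called by DESeq2 against edgeR were 1276 and 804 in Cdk8-/-, 402 and 4 for the double knockout against Cdk8-/-, and 481 and 4 for departure from additivity.

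The main limits are 3 libraries a group, the wide spread of these genes in the Cdk8-/- and double knockout libraries, the separate library types of the 2 experiments, the low counts of Gapdh, Pgk1 and Pgam1 in the genotype tables, and opposite-strand exons over more than 10% of Gpi1, Bnip3, Higd1a and Ankrd37, whose reads the genotype libraries cannot assign by strand.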
